A study of Mus musculus with 4 samples.

Results

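Cluster 11 was the group of mature luminal mammary cells that carried cluster number 11 in the deposited table, and it held 3533 of 32439 cells. Of these cells, 2863 came from wild-type (WT) glands, with 1454 in library A and 1409 in library B, and 670 came from V943R mutant glands, with 321 in library A and 349 in library B. The authors' clusters 4 to 10 hold the other mature luminal cells, 20267 in all. The study compared single luminal cells from mice with and without a V943R substitution in the receptor ERBB3. Both genotypes were C57BL/6N mice aged 6 weeks, WT being ErbB3+/+;MMTV-Cre and V943R being ErbB3V943R/V943R;MMTV-Cre, so that both carried the Cre transgene. MMTV-Cre is driven in the mammary epithelium, and the mutant allele was made only in cells where Cre had acted. For each genotype, the thoracic and abdominal glands of 3 mice were pooled, enriched for epithelium, sorted for luminal cells and sequenced as 2 libraries, which share their mice and are therefore technical.

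Mature luminal cells, also called hormone-sensing cells, line the mammary duct and carry the receptors for estrogen, progesterone and prolactin. They answer these hormones by sending paracrine signals, among them the EGF family ligand amphiregulin, the Wnt ligand WNT4 and calcitonin, to neighbouring cells. ERBB3 is a receptor of the EGF receptor family with a weak or inactive kinase, which binds neuregulins and passes the signal on as an allosteric activator of a partner receptor such as ERBB2.

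Levels are given in CPM, the unique molecular identifiers (UMIs) of a gene per 1000000 UMIs of the same cells, and differences as log2 ratios of CPM with a 95% interval in brackets that covers counting error only. A gene is called higher or lower in cluster 11 when its ratio to clusters 4 to 10 over both WT libraries together was 1.5 fold or more and each WT library pointed the same way, with at least 50 UMIs in the group with more. It is called higher or lower in V943R when the fold between genotypes was 1.5 or more, on at least 50 UMIs, and both V943R libraries lay beyond both WT libraries. These calls are rules of size and not tests. The clusters were drawn from the same values in the cells of both genotypes, and each genotype was 1 pool of mice, so no test was made and no p-value is given.

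The targeted gene *Erbb3* was at 68.0 and 62.6 CPM in cluster 11 of WT libraries A and B and at 57.5 and 60.8 CPM in clusters 4 to 10. In V943R it was at 31.6 and 39.8 CPM in cluster 11, a log2 difference of −0.85 (−1.19 to −0.52) from WT, beside −1.11 (−1.21 to −1.01) in clusters 4 to 10. The *Erbb3* count was therefore lower in the mutant in cluster 11, as in the rest of the mature luminal cells. Its WT level in cluster 11 lay within the range of the other clusters. By the paper's methods, the conditional allele carries a human growth hormone 3′ UTR until Cre has acted. Whether transcripts of alleles still in that form were counted as *Erbb3* was not tested, so the lower count cannot be told apart from incomplete action of Cre. The libraries read the 3′ end of transcripts and not the changed codon, so these levels do not check the genotype labels.

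The markers of mature luminal cells were present in cluster 11 at levels near those of clusters 4 to 10. *Prlr*, the prolactin receptor, was at 2479 and 2646 CPM in cluster 11 of WT libraries A and B and at 2001 and 2072 CPM in clusters 4 to 10, and *Cited1*, a transcriptional coregulator of estrogen-responsive ductal cells, was at 1988 and 1948 CPM against 1334 and 1410.1 CPM. *Foxa1*, a partner factor of the estrogen receptor, was at 180.2 and 195 CPM against 144 and 149.5 CPM, *Esr1*, the estrogen receptor, at 51.6 and 57.6 CPM against 39.2 and 48.4 CPM, and *Pgr*, the progesterone receptor, at 109 and 137 CPM against 142 and 158 CPM. None of the 7 mature luminal markers met the rule in either direction, with a median log2 of 0.31 beside −0.02 over all 14537 genes measured. Of the 6 luminal progenitor markers, *Aldh1a3* and *Elf5* were lower, while *Kit*, the stem cell factor receptor, was at 2.91 and 3.04 CPM against 2.95 and 2.31 CPM. The 4 proliferation markers *Mki67*, *Top2a*, *Cdk1* and *Birc5* were all lower, with a median log2 of −3.51, but this contrast was to the cycling clusters 5 and 6. *Mki67* was at 1.79 and 2.03 CPM in cluster 11 of WT libraries A and B, at 1.97 and 1.82 CPM in cluster 10, at 3.30 and 2.96 CPM in cluster 7, and at 183 and 153 CPM in cluster 6.

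Cells of cluster 11 were shallower than other mature luminal cells, with a median of 2922 UMIs in WT against 3676 in clusters 4 to 10, and 3238 against 4155 in V943R. Between 71 and 111 barcodes were shared by any 2 libraries, and doublets were not removed. Markers of other cell types were scarce. The 5 fibroblast markers summed to 34.4 and 38.3 CPM in cluster 11 of WT libraries A and B against 11.2 and 8.91 in clusters 4 to 10, beside 5632 in cluster 12, and nearly all of it was decorin, *Dcn*. Of the other 4 fibroblast markers, *Col1a1* had 5 UMIs in WT cluster 11 and *Col1a2*, *Col3a1* and *Pdgfra* had 1 each. The 5 immune markers summed to 2.01 and 4.05 CPM in cluster 11, against 19527 in cluster 13, and the 4 endothelial markers to 1.57 and 0.811 CPM. The 6 basal markers reached 25.04 and 24.5 CPM against 13.3 and 15.95, most of it *Acta2*, smooth muscle actin, at 17.9 and 18.0 CPM against 8.77 and 10.0 CPM. Its neighbour *Stambpl1* was also called, and the part of other cell types in these levels was not tested.

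The 5 markers that define the cluster were all higher in WT cluster 11, as the choice of markers requires. In V943R 4 of the 5 were lower, which that choice also favours, beside 3.17% of all genes measured. Their median log2 between genotypes was −0.86 in cluster 11 and −0.67 in clusters 4 to 10. *Lrg1* encodes a secreted leucine-rich glycoprotein of the acute phase (ENSMUSG00000037095, chromosome 17 from 56119678 to 56122001). It was at 159.6 and 153 CPM in cluster 11 of WT libraries A and B and at 47.1 and 41.0 CPM in clusters 4 to 10, and the log2 ratio was 1.83 (1.73 to 1.92). No other WT mature luminal cluster came above 70.7 CPM. In V943R cluster 11 it was at 42.7 and 52.6 CPM, a log2 difference of −1.69 (−1.98 to −1.42) from WT, beside −1.09 (−1.20 to −0.98) in clusters 4 to 10. The mutant cells of cluster 11 therefore held less *Lrg1* than WT cells of cluster 4, and still more than the mutant cells of every other mature luminal cluster in the same library.

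*Cxcl17*, a chemokine of mucosal epithelia (ENSMUSG00000060188, chromosome 7 from 25400053 to 25412886), was at 199 and 187 CPM in cluster 11 of WT libraries A and B and at 62.8 and 64.8 CPM in clusters 4 to 10, a log2 ratio of 1.59 (1.51 to 1.68). In V943R cluster 11 it was at 88.2 and 121 CPM, a log2 difference of −0.86 (−1.05 to −0.67), beside −0.58 (−0.67 to −0.50) in clusters 4 to 10. In V943R library A cluster 10 was above cluster 11. *Kcnh1*, a voltage-gated potassium channel (ENSMUSG00000058248, chromosome 1 from 192190774 to 192510159), was at 51.6 and 51.1 CPM in cluster 11 of WT libraries A and B and at 14.5 and 15.02 CPM in clusters 4 to 10 and at 25.1 and 30.1 CPM in V943R cluster 11. Cluster 9 of WT library B came near WT cluster 11 at 44.8 CPM of *Kcnh1*. *Fgg*, the gamma chain of fibrinogen (ENSMUSG00000033860, chromosome 3 from 83007724 to 83015049), differed between genotypes by about as much in cluster 11, with a log2 of −0.70 (−0.79 to −0.62), as in clusters 4 to 10, with −0.67 (−0.71 to −0.64). *Tmem158*, a membrane protein first described as induced by Ras (ENSMUSG00000054871, chromosome 9 from 123259053 to 123260764), was the exception, at 986 and 1037 CPM in V943R cluster 11 and a log2 difference of −0.13 (−0.19 to −0.07) from WT. Coordinates are those of GRCm38.

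**Figure D1:**
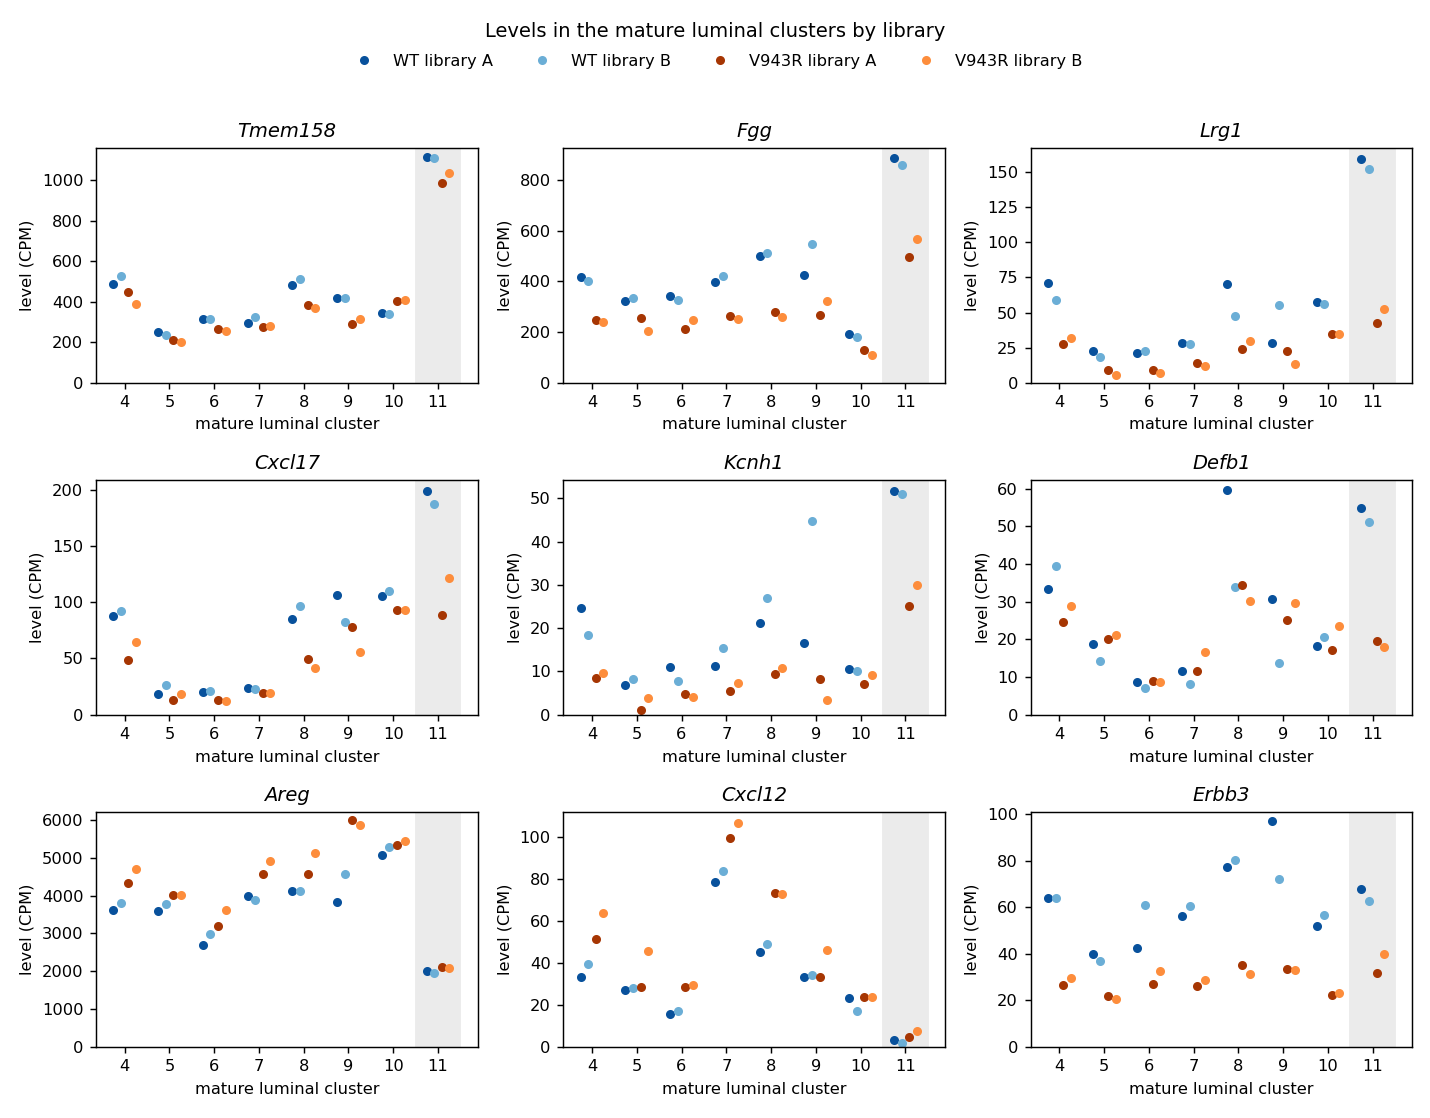
Levels in CPM (y axis) of 9 genes in the 8 mature luminal clusters (x axis), with 1 point per library and cluster 11 shaded. WT cluster 11 stands above the other clusters for *Tmem158*, *Fgg*, *Lrg1*, *Cxcl17* and *Kcnh1* and below them for *Areg* and *Cxcl12*, while V943R cluster 11 lies near WT for *Tmem158* and *Areg* and under WT for *Lrg1*, *Cxcl17*, *Kcnh1*, *Defb1* and *Erbb3*.

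Each of the markers described here was found in a larger share of cells in cluster 11 than in clusters 4 to 10 together. After thinning each cell to 1000 UMIs, 58.8% of WT cluster 11 cells had a UMI of *Tmem158*, against 27.0% in clusters 4 to 10, and 23.3% and 13.3% in clusters 12 and 13. Those clusters held 43 and 83 WT cells, carried stromal and immune markers, and had median depths of 1985 and 1899 UMIs. *Fgg* was found in 44.1% of WT cluster 11 cells, against 23.4% in clusters 4 to 10, 4.65% in cluster 12 and 6.02% in cluster 13. *Lrg1* was found in 12.4% of cells against 3.84%, with 37.2% in cluster 12, 2.41% in cluster 13 and 19.7% in the luminal progenitor cluster 1, so *Lrg1* was not highest in cluster 11 outside the mature luminal cells. Its WT level in cluster 1 was 301 and 313 CPM in libraries A and B. In thinned WT cells of cluster 11, 42.3% had at least 2 of the 5 markers, with 42.7% in library A and 41.9% in library B, against 11.7% in clusters 4 to 10, 11.6% in cluster 12 and 1.2% in cluster 13. In V943R, 23.6% of cluster 11 cells had at least 2 of the 5, with 22.5% and 24.6% by library, against 6.61% in clusters 4 to 10. A share of 18.5% of WT cells and 29.0% of V943R cells in cluster 11 had none of the markers at this depth.

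**Figure D2:**
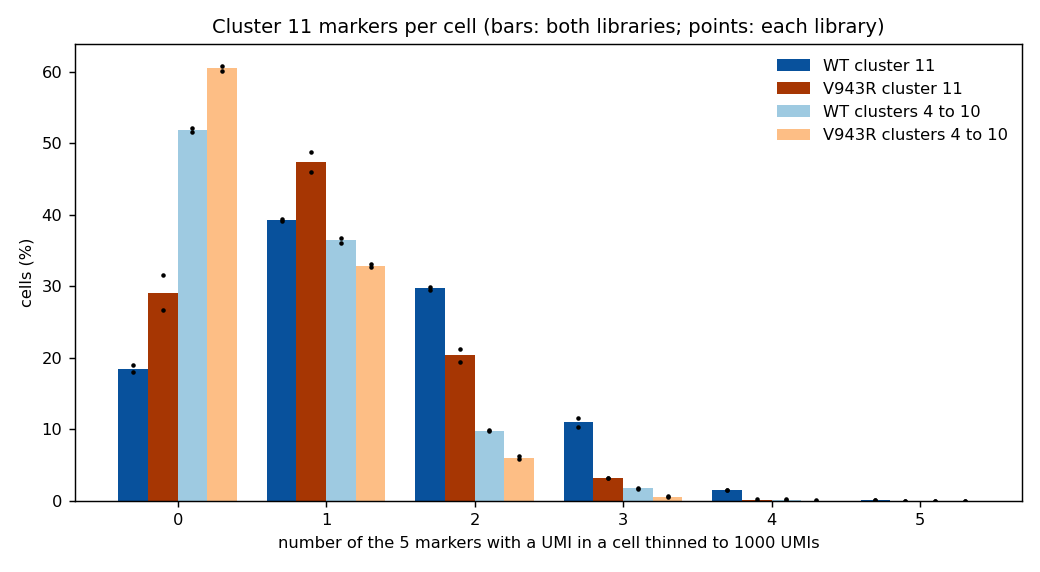
Share of cells in percent (y axis) with a UMI of 0 to 5 of the markers (x axis) after thinning to 1000 UMIs per cell, with bars for both libraries together and points for each library. The share with 2 or more markers is 42.3% in WT cluster 11, 23.6% in V943R cluster 11, 11.7% in WT clusters 4 to 10 and 6.61% in V943R clusters 4 to 10, and few cells of any group have 4 or 5.

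Against the other mature luminal clusters, the WT program of cluster 11 held more of several acute-phase transcripts and fewer of most EGF family ligands measured. The rule was met by 628 genes higher, 4.32% of 14537 measured, and by 1395 genes lower, 9.6%. WT cluster 11 held 9405963 UMIs and WT clusters 4 to 10 held 47374811. The minimum of UMIs applied only to the group with more, so a gene could be called lower on few UMIs in cluster 11. The numbers higher and lower are therefore not at like depth, and the rule itself can add to the excess of lower genes. Most of the genes called were at low levels. The counting interval of the ratio left out 0 for 542 of the 628 (86.3%) and for 1126 of the 1395 (80.7%), and the median count in the group with more was 156 and 266 UMIs. At 100 CPM or more in the group with more, an addition chosen after seeing the data, 1759 genes were measured, of which 38 were higher (2.16%) and 88 lower (5.0%). Cluster 8 was the cluster most like cluster 11, with a root mean square difference of 0.207 in log2(CPM + 10) over 15016 genes. Cluster 4 was at 0.223 and cluster 7 at 0.230, and the cycling clusters 5 and 6 were the least alike, at 0.457 and 0.455. Against cluster 8 alone 255 genes were higher (2.47%) and 474 lower (4.59%), and against cluster 4 alone 302 (2.91%) and 477 (4.6%).

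**Figure D3:**
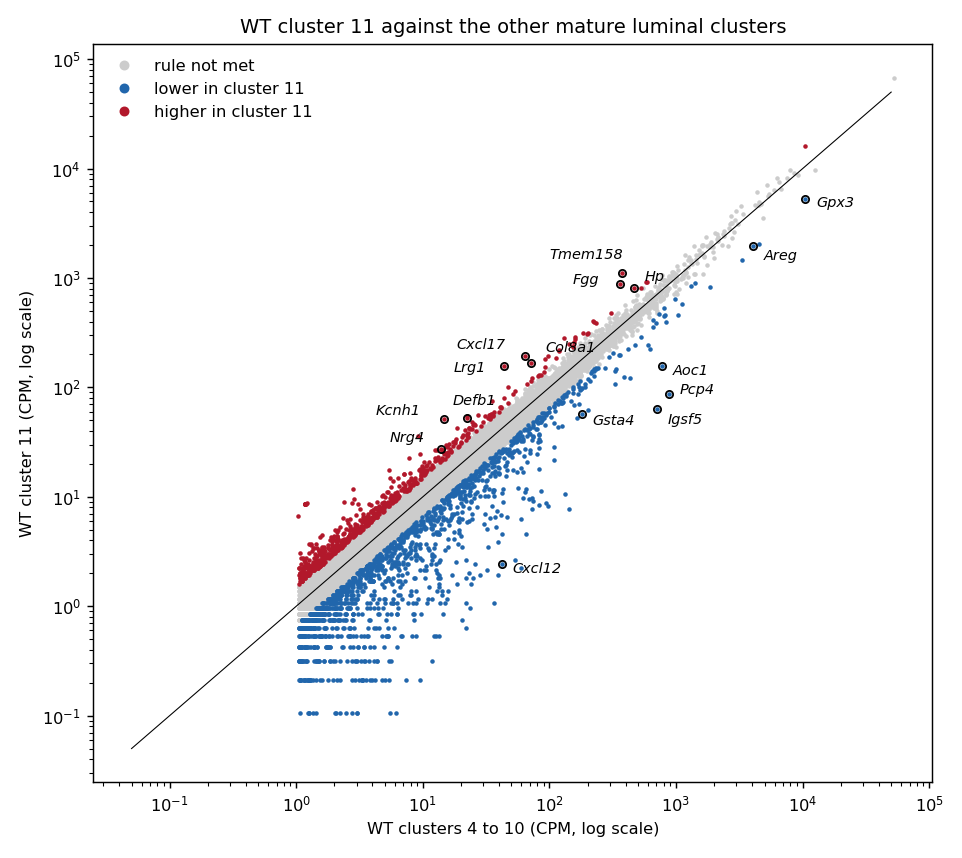
CPM in WT clusters 4 to 10 (x axis, log scale) against CPM in WT cluster 11 (y axis, log scale), with 1 point per gene and genes that met the rule in color. *Lrg1*, *Cxcl17*, *Kcnh1*, *Fgg* and *Tmem158* lie above the line of equal levels, and *Igsf5*, *Pcp4*, *Aoc1*, *Gsta4* and *Cxcl12* lie below it.

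Acute-phase genes, which liver and barrier epithelia raise in response to IL-6 family cytokines through STAT3 and C/EBP factors, were in part higher in cluster 11. Of 20 measured members of the list, 7 were higher and none lower, beside 4.32% higher and 9.6% lower of all genes measured. The median log2 was 0.34, and 2 of the 7, *Fgg* and *Lrg1*, were markers chosen because they are high in cluster 11. Beside *Fgg* and *Lrg1* they were *Hp*, *Cebpd*, *Reg3g*, *Cp* and *Il11*. *Hp*, haptoglobin, which binds free hemoglobin, was at 763 and 857 CPM in cluster 11 of WT libraries A and B and at 466 and 458 CPM in clusters 4 to 10. *Cebpd*, a C/EBP factor of the acute phase, was at 242 and 260.1 CPM against 138 and 145 CPM, above each of the other mature luminal clusters in both libraries. *Reg3g*, a secreted lectin that kills bacteria, was at 19.0 and 16.2 CPM against 5.11 and 5.71 CPM, and *Cp*, the copper carrier ceruloplasmin, was at 11.9 and 10.54 CPM against 5.38 and 4.98 CPM. *Il11*, a cytokine of the IL-6 family, was called on 16 UMIs in WT cluster 11, with a log2 of 0.63 (−0.28 to 1.46). *Stat3* did not meet the rule at 179.8 and 174 CPM against 142 and 139.9 CPM, nor did *Socs3* with a log2 of 0.17, *Cebpb* with 0.05 and *Lcn2*, lipocalin 2, with −0.03.

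Among chemokines 4 of 11 measured were higher and 3 lower, beside 4.32% higher and 9.6% lower of all genes measured. Among the higher ones, *Cxcl17* was a marker chosen because it is high in cluster 11. *Cxcl17* was joined by *Cx3cl1*, the membrane-bound ligand of CX3CR1, at 23.5 and 21.3 CPM against 15.3 and 14.5 CPM, by *Ccl27a*, and by *Ccl5*, whose libraries lay far apart at 4.70 and 20.1 CPM in WT cluster 11. *Cxcl12*, the ligand of CXCR4, was the reverse case, at 3.13 and 1.82 CPM in cluster 11 of WT libraries A and B and at 40.6 and 42.9 CPM in clusters 4 to 10, a log2 ratio of −4.10 (−4.76 to −3.51). Its highest level was in cluster 7, and no other mature luminal cluster of either WT library came below 15.4 CPM. *Cxcl2* and *Cxcl10* were lower too. Of 11 mucosal defence genes, *Muc1*, a membrane mucin, was higher at 9.61 and 8.31 CPM against 4.23 and 5.55 CPM, and *Defb1*, a secreted antimicrobial defensin, was higher at 54.8 and 51.1 CPM against 24.9 and 20.2 CPM, with WT cluster 8 of library A at 59.6 CPM. *Slpi* and *Muc15* were lower, *Muc15* on 5 UMIs in WT cluster 11.

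The remaining higher genes at 100 CPM or more had varied roles. *Col8a1*, a short-chain collagen, was at 167 and 169.9 CPM in cluster 11 of WT libraries A and B and at 69.3 and 72.2 CPM in clusters 4 to 10, a log2 ratio of 1.25 (1.16 to 1.34). *Tmprss2*, a serine protease anchored in the apical membrane, was at 283 and 283 CPM against 127 and 134 CPM, and *Wars*, the tryptophanyl-tRNA synthetase, at 95.7 and 107 CPM against 45.4 and 47.9 CPM. *Hdac11*, a lysine deacylase, was at 181 and 181 CPM against 91.0 and 92.1 CPM. *Dnajc12*, a cochaperone of aromatic amino acid hydroxylases, was at 391 and 418 CPM against 214 and 226 CPM, and *Dgat2*, which makes triglycerides, at 290.4 and 284 CPM against 165 and 156 CPM. *Gclc*, the catalytic subunit of the enzyme that starts glutathione synthesis, was at 303 and 319 CPM against 182 and 186 CPM. Of the 38 genes, 33 were above each of clusters 4 to 10 in both WT libraries, as were 234 of the 628 genes called higher. Those 234, which also met the rule, were 1.61% of the 14537 genes measured.

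The largest folds by the rule were at low counts. The first 12 of the 15 genes with the largest fold were entries of the clustered protocadherin alpha genes *Pcdha* with the same UMIs in every cell, since these genes share their last exons, and they count once, with 81 UMIs in WT cluster 11 and a log2 ratio of 2.86 (2.36 to 3.38). The next 2 were also of that locus, and the last was *Hba-a1*, a hemoglobin gene, on 63 UMIs. With each locus counted once, *Fam90a1a* followed at 11.9 and 11.6 CPM against 2.87 and 2.71 CPM, then *Dcn* at 33.5 and 37.5 CPM against 10.45 and 8.02 CPM, *Lrg1*, *Kcnh1*, *Meig1* at 7.60 and 11.4 CPM against 2.73 and 2.96 CPM and *Reg3g*. *Zbtb16*, the transcriptional repressor PLZF, was at 7.83 and 9.53 CPM against 3 and 2.55 CPM. *Dbp*, a clock-controlled transcription factor, was at 25.3 and 24.1 CPM against 8.33 and 10.6 CPM. The protocadherin alpha entries cannot be told apart in 3′ reads.

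Among the most reduced of the abundant genes was a pair of neighbours on chromosome 16. *Igsf5*, which encodes an immunoglobulin protein of cell junctions (ENSMUSG00000000159, chromosome 16 from 96361668 to 96422121), was at 66.9 and 59.4 CPM in cluster 11 of WT libraries A and B and at 756 and 665 CPM in clusters 4 to 10, a log2 ratio of −3.49 (−3.61 to −3.38). *Pcp4*, a small calmodulin-binding protein (ENSMUSG00000090223, chromosome 16 from 96467606 to 96525793), was at 90.8 and 82.3 CPM against 928 and 826 CPM, with −3.34 (−3.44 to −3.24). The ratio of *Igsf5* to *Pcp4* stayed between 0.722 and 0.834 over the 16 values of 8 WT clusters in 2 libraries, with a median of 0.804, so the reads of the pair moved together. *Aoc1*, diamine oxidase, which breaks down histamine, was at 154 and 157 CPM against 770.4 and 784 CPM, and *Gsta4*, a glutathione transferase for lipid aldehydes, at 55.2 and 59.2 CPM against 179 and 179 CPM. *Crym*, a thyroid hormone binding protein, was at 137 and 144 CPM against 319.7 and 344 CPM, *Anxa3* at 72.0 and 67.9 CPM against 172 and 173 CPM, and *Gpx3*, the secreted glutathione peroxidase, at 5268 and 5166 CPM against 10488 and 10424 CPM. Of the 88 lower genes at 100 CPM or more, 37 were below each of clusters 4 to 10 in both WT libraries, as were 185 of the 1395 genes called lower. Those 185, which also met the rule, were 1.27% of the 14537 genes measured.

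Of single genes with large folds lower, *Sprr1a* was at 8.94 and 11.96 CPM against 123 and 142 CPM, *Ivl*, involucrin, at 0.894 and 1.01 CPM against 23.6 and 23.5 CPM, and *Sprr2a3*, *Slurp1* and *Lce6a* were also among the 15 genes with the largest fold lower. Of 10 measured keratins, 4 were lower and none higher, beside 9.6% lower and 4.32% higher of all genes measured. *Krt4* was at 12.1 and 10.54 CPM against 82.9 and 86.9 CPM, *Krt6a* at 7.60 and 11.8 CPM against 63.7 and 82.3 CPM and *Krt8*, a luminal keratin, at 659 and 635 CPM against 1002 and 973 CPM, and *Krt15* was the other. Of 3 measured uroplakins, *Upk3a* and *Upk3bl* were lower. *Upk3a* was at 1528 and 1409.5 CPM against 3148 and 3441 CPM, with 7290 CPM in WT cluster 5 and 186 CPM in WT cluster 10, so it was not lower than every cluster. Against cluster 8 alone its log2 ratio was −0.52 and against cluster 4 alone −0.50, neither of which met the rule, and after thinning it was found in 43.2% of WT cluster 11 cells, 42.1% of cluster 8 cells and 40.6% of cluster 4 cells, beside a background of 30.2% in cluster 12 and 22.9% in cluster 13. The remaining genes with the largest fold lower were mostly of the cell cycle, among them *Plk1*, *Ccnb1*, *Nusap1*, *Ndc80* and *Pclaf*, each at its highest in clusters 5 or 6. Without clusters 5, 6 and 9, the number of genes lower was 812 in place of 1395. *Abhd2* and *Actb* were lower against clusters 4 to 10 together, and in cluster 4 *Abhd2* was at 1318 and *Actb* at 12598 CPM.

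Ligands of the EGF family were mostly low in cluster 11. Of 6 measured, 4 were lower and 1 higher, beside 9.6% lower and 4.32% higher of all genes measured. The median log2 was −0.85, and among the lists only proliferation markers and uroplakins had a lower median. *Areg*, amphiregulin, the EGF receptor ligand through which estrogen acts on the duct, was at 1994 and 1949 CPM in cluster 11 of WT libraries A and B and at 4004 and 4099 CPM in clusters 4 to 10, below every other mature luminal cluster in each of the 4 libraries. *Btc*, betacellulin, was at 18.8 and 20.3 CPM against 45.2 and 45.9 CPM, and *Hbegf* at 27.9 and 26.6 CPM against 43.9 and 42.6 CPM, and *Epgn* had 2 UMIs in WT cluster 11. *Nrg4*, a neuregulin that binds ERBB4, was higher at 24.1 and 30 CPM against 13.01 and 14.5 CPM, and its log2 ratio was 0.98 (0.77 to 1.19). Another mature luminal cluster came near it, at 19.2 CPM in WT library A and 27.6 CPM in WT library B. *Tgfa* was at a log2 of −0.02. Among 12 measured ErbB receptors and adaptors only *Cblb*, a ubiquitin ligase, met the rule, lower on 17 UMIs. *Erbb2* was at 49.0 and 48.6 CPM against 37.7 and 42.4 CPM and *Grb7*, its adaptor, at a log2 of 0.34.

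Targets of the pathways under these receptors were mixed, and their counts stand beside 4.32% higher and 9.6% lower of all genes measured. Of 23 ERK feedback and target genes, 2 were higher and 4 lower, with a median log2 of 0.01. *Spry2*, a feedback inhibitor of receptor tyrosine kinases, was lower at 16.8 and 17.8 CPM against 34.8 and 39.0 CPM, *Ier3* at 258 and 234 CPM against 463 and 479 CPM, and *Spry1* and *Fosl2* were lower too, while *Etv1* and *Tmem158* were higher. Of 22 PI3K and FOXO genes, 2 were higher and 3 lower. *Pik3ip1*, an inhibitor of PI3K, was higher at 26.2 and 33.6 CPM against 16.01 and 16.2 CPM, and *Txnip*, an arrestin that limits glucose uptake, at 106 and 122 CPM against 67.0 and 75.6 CPM. Among those lower, *Irs1*, the insulin receptor substrate, was at 16.1 and 16.8 CPM against 38.3 and 40.7 CPM and *Foxo3* at 26.4 and 26.1 CPM against 42.5 and 41.6 CPM.

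Hormone response genes did not move as a block, and their counts stand beside 4.32% higher and 9.6% lower of all genes measured. Of 9 progesterone response genes, *Wnt4* was higher at 139 and 138 CPM against 93.3 and 89.5 CPM and *Tsc22d3*, a glucocorticoid and progesterone target, at 30.4 and 34.3 CPM against 18.4 and 17.7 CPM, while *Areg*, *Cxcl12* and *Fkbp5* were lower. Of 10 prolactin and STAT5 genes, 3 were lower and none higher. *Tph1*, which makes serotonin, was at 7.83 and 5.47 CPM against 42.0 and 50.5 CPM, *Elf5*, a factor of the alveolar lineage, at 9.61 and 9.93 CPM against 21.7 and 21.6 CPM, and *Socs2*, a feedback inhibitor of STAT5, had a log2 of −0.96. Of 20 steroid receptors and cofactors, *Nr3c2*, the mineralocorticoid receptor, was higher, and *Greb1* and *Fkbp5* lower.

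The lists of signalling between cells and of luminal factors are short, and their counts stand beside 4.32% higher and 9.6% lower of all genes measured. In the Notch list 3 of 12 were lower and none higher, with *Notch2* at 6.04 and 8.31 CPM against 20.4 and 20.2 CPM beside *Jag1* and *Nrarp*. Of 17 Wnt genes, *Wnt4* was higher and *Wnt5a*, at 93.0 and 103 CPM against 175 and 186 CPM, and *Lgr4* were lower. Of 21 TGF beta and BMP genes, *Inhbb*, an activin subunit, was higher at 52.8 and 60.6 CPM against 33.8 and 35.9 CPM, with *Tgfbr2* and *Smad6*, and *Tgfb3* was lower at 18.6 and 14.8 CPM against 42.7 and 37.5 CPM, with *Ltbp1*, *Id1* and *Id3*. Of 8 genes of the IGF system *Irs1* alone was lower. Of 26 luminal transcription factors 4 were lower and none higher, namely *Id1*, *Id3*, *Ehf* and *Elf5*.

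Counts in the remaining lists likewise stand beside 4.32% higher and 9.6% lower of all genes measured. Glutathione and peroxide defence had 4 of 26 higher, *Gclc*, *Gstm1*, *Gstt1* and *Nqo1*, and 4 lower, *Gpx2*, *Gpx3*, *Gsta4* and *Prdx4*. Of 18 ion channels and transporters, *Scnn1a*, the alpha subunit of the epithelial sodium channel, was higher at 54.8 and 50.9 CPM against 34.4 and 33.0 CPM. The chosen marker *Kcnh1* was the other one higher, and *Scnn1g* and *Aqp3* were lower. Of 29 apoptosis and survival genes 1 was higher, *Bmf*, and 7 lower, with *Cdkn1a*, the p53 target p21, at 155 and 146 CPM against 275 and 276 CPM. The list of matrix, integrins and proteases, which did not hold *Col8a1* and *Tmprss2*, had 6 of 26 lower and none higher, the S100 and annexin list 3 of 16 lower, lipid and cholesterol synthesis 3 of 18 lower, and milk proteins 1 of 4 lower. The list of coagulation and fibrinolysis, from which the fibrinogen chains were kept for the acute phase, had *Serpine2*, a protease inhibitor, higher at 22.4 and 30.6 CPM against 12.8 and 13.2 CPM and *Gas6* lower at 93.5 and 99.9 CPM against 175 and 179 CPM among 11. Interferon response had *Gbp2* higher and *Ifit1* and *Isg15* lower among 17, immediate early and heat shock genes *Fosb* higher and *Ier3* lower among 17, and junction genes *Cldn23* higher among 23. None met the rule among 11 antigen presentation genes, 16 genes of protein folding in the endoplasmic reticulum, 85 cytosolic ribosomal proteins and 76 nuclear genes of oxidative phosphorylation. The mitochondrial genome had 11 of 22 entries lower and none higher, beside a cluster 8 whose median cell had 0.963% mitochondrial UMIs against 0.205% in cluster 11.

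**Figure D4:**
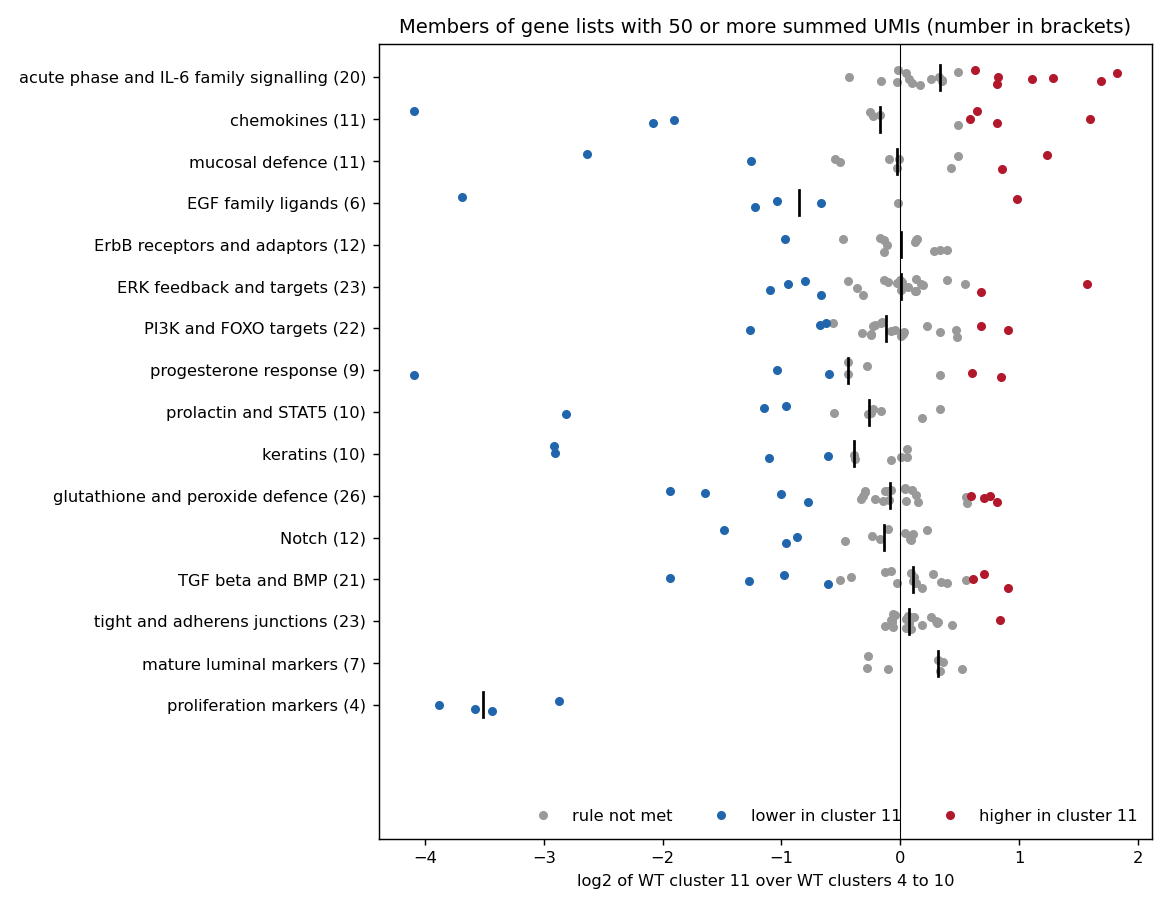
Log2 ratio of WT cluster 11 over WT clusters 4 to 10 (x axis) for each measured member of 16 gene lists (y axis), with 1 point per gene, black ticks at the list medians and colored points for genes that met the rule. The acute-phase list has 7 colored points to the right, among them the chosen markers *Fgg* and *Lrg1*, and none to the left, the EGF ligands 4 to the left and 1 to the right, and all 4 proliferation markers lie far to the left.

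Cells of cluster 11 were fewer in the mutant pool. They made up 20.2% of WT mature luminal cells, with 19.8% and 20.6% in libraries A and B, and 6.97% of V943R mature luminal cells, with 6.72% and 7.22%. The ratio of shares was 0.345 (0.319 to 0.374), or 2.89-fold lower, and 0.316 over all cells, with an interval for the counting of cells that leaves out differences between mice or pools. The clusters were defined on values that include the genes described here, so the size of the cluster and the level of its genes are not separate measures.

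The V943R cells assigned to cluster 11 held much of the contrast to clusters 4 to 10, which the assignment to the cluster itself favours. All 38 higher genes of 100 CPM or more pointed the same way in V943R, 28 met the rule there, and the median log2 was 0.74 in WT and 0.75 in V943R. Of the 88 lower genes, 85 pointed the same way, the others being *Angptl4*, *Sbp* and *Slc5a6*, and 70 met the rule, with medians of −0.85 and −0.84. Over all 628 higher genes, 559 were measured in V943R, 452 pointed the same way and 248 met the rule. In V943R 7.27% of 14438 genes measured were called higher. The medians were 0.74 in WT, whose values chose the genes, and 0.55 in V943R. Genes called higher from WT library A by itself had a median of 0.519 in WT library B and 0.535 in V943R. Those called from WT library B by itself had 0.534 in WT library A and 0.527 in V943R. Over the 1395 lower genes, 1330 were measured, 1193 pointed the same way and 866 met the rule, with medians of −1.02 and −0.87, against 13% called lower. Genes called lower from WT library A by itself had a median of −0.797 in WT library B and −0.775 in V943R. Those called from WT library B by itself had −0.794 in WT library A and −0.793 in V943R. For some genes the contrast was smaller in V943R. *Nrxn3*, a presynaptic adhesion protein, had a log2 ratio to clusters 4 to 10 of 0.81 in WT and 0.11 in V943R, and *Defb1* had 1.23 and −0.12. *Cebpd* had 0.83 and 0.39, and *Wars* 1.12 and 0.55.

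**Figure D5:**
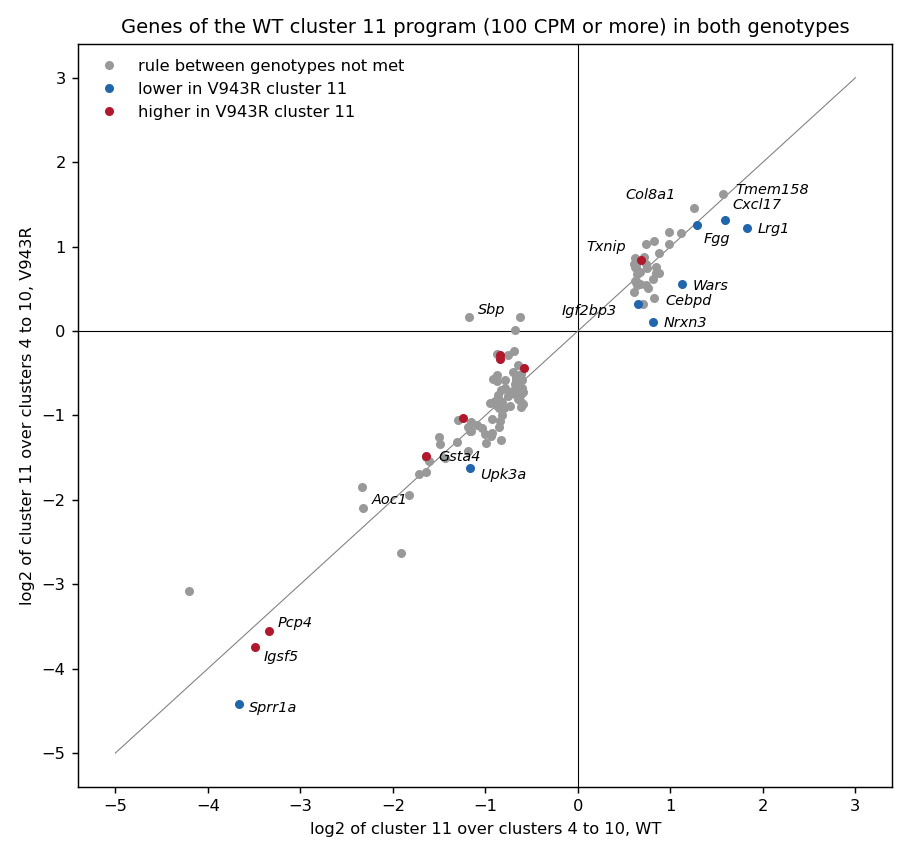
Log2 ratio of cluster 11 over clusters 4 to 10 in WT (x axis) against the same ratio in V943R (y axis) for the 38 higher and 88 lower genes of 100 CPM or more, with 1 point per gene and colors for genes that met the rule between genotypes in cluster 11. All 38 genes on the right are above 0 in V943R, most points follow the line of equal ratios, and *Lrg1*, *Wars* and *Nrxn3* lie below it.

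Between genotypes within cluster 11, genes of the acute phase and of chemokine and mucosal defence were among those lower in V943R. The rule was met by 276 genes higher (2.7% of 10223 measured) and 324 lower (3.17%), beside 394 (2.66%) and 154 (1.04%) of 14792 in clusters 4 to 10. These shares are not at like depth, since V943R cluster 11 held 2407631 UMIs and V943R clusters 4 to 10 held 43257698. The counts in cluster 11 moved with single libraries. They were 175 higher and 192 lower without WT library A, 113 and 169 without WT library B, 499 and 564 without V943R library A, and 599 and 750 without V943R library B. The counting interval left out 0 for 201 of the 276 (72.8%) and 162 of the 324 (50%), so many of these calls, of the lower ones above all, cannot be told from counting error. At 100 CPM or more, 11 of 1704 genes were higher (0.646%) and 11 lower (0.646%).

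Of 17 acute-phase genes measured between genotypes, 5 were lower and none higher, beside 3.17% lower and 2.7% higher of all genes measured. The median log2 was −0.44, beside 0.03 over all genes measured in cluster 11 and −0.15 for the same list in clusters 4 to 10. The 5 were *Lrg1*, *Fgg*, *Fgb*, *Reg3g* and *Osmr*. *Lrg1*, *Fgg* and *Reg3g* had been called higher in cluster 11 from the same WT values, which favours a lower value in V943R. The paper had already reported *Fgg* and *Fgb* as lower in mutant cluster 11. The list, into which the fibrinogen chains were placed, was chosen with earlier results of these data known. The count of members lower is therefore not independent of those results. *Lrg1* and *Fgg* were also called lower in V943R in clusters 4 to 10, with −1.09 and −0.67. *Fgb*, the beta chain of fibrinogen, had a log2 difference of −1.23 (−1.32 to −1.15) in cluster 11 and −0.52 (−0.54 to −0.50) in clusters 4 to 10, and *Reg3g* had −1.01 (−1.74 to −0.35). *Osmr*, the oncostatin M receptor, was at 23.9 and 27.8 CPM in WT and 9.28 and 18.8 CPM in V943R cluster 11. *Hp* did not meet the rule, at 763 and 857 CPM in WT and 584 and 636 CPM in V943R, a log2 of −0.41 (−0.49 to −0.33). The summed fibroblast markers were also lower, at 34.4 and 38.3 CPM in WT and 22.3 and 8.27 CPM in V943R cluster 11. Nearly all of this was *Dcn*, and the other fibroblast markers were almost absent. *Dcn* had a log2 of −1.33 (−1.89 to −0.82) beside −1.44 (−1.72 to −1.17) in clusters 4 to 10. *Lrg1* was at 416 and 1037 CPM in WT cluster 12, and the part of such cells in these differences was not tested.

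Of 7 chemokines, *Cxcl17*, *Cxcl1* and *Ccl5* were lower and none was higher, beside 3.17% lower and 2.7% higher of all genes measured. *Cxcl17*, *Ccl5* and *Defb1* had been called higher in cluster 11 from the same WT values, which favours a lower value in V943R. *Cxcl1*, a neutrophil chemokine, was at 77.6 and 98.9 CPM in WT and 29.7 and 53.4 CPM in V943R cluster 11, a log2 of −1.05 (−1.36 to −0.76), whereas in clusters 4 to 10 the difference was 0.22 (0.16 to 0.27). The difference between these effects was not tested. Of 7 mucosal defence genes 3 were lower, and *Defb1* was at 54.8 and 51.1 CPM in WT and 19.5 and 18.0 CPM in V943R, a log2 of −1.5 (−1.97 to −1.06) beside −0.14 (−0.27 to −0.01) in clusters 4 to 10. *Gbp2*, an interferon-induced guanylate binding protein, was lower as well, at 11.4 and 15.8 CPM in WT and 2.78 and 6.77 CPM in V943R.

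Lower at 100 CPM or more were also *Wars*, with a log2 of −0.68 (−0.93 to −0.43) beside −0.11 (−0.20 to −0.02) in clusters 4 to 10, and *R3hdml*, a putative secreted protease inhibitor, at 167 and 170.3 CPM in WT and 90.0 and 90.2 CPM in V943R. *Pir*, pirin, was at 133 and 149 CPM in WT and 57.5 and 93.2 CPM in V943R. The log2 was −0.90 for *R3hdml* and −0.88 for *Pir*, beside −0.29 and −0.50 in clusters 4 to 10. *Piezo2*, a mechanosensitive ion channel, was at 139.7 and 148 CPM in WT and 91.0 and 75.2 CPM in V943R, a log2 of −0.81 beside −0.20 in clusters 4 to 10. *Igf2bp3*, an RNA-binding protein of fetal tissue, was at 119 and 136 CPM in WT and 71.5 and 77.4 CPM in V943R, and *Nrxn3* at 267 and 286 CPM in WT and 158 and 192 CPM in V943R. The log2 was −0.78 for *Igf2bp3* and −0.65 for *Nrxn3*, beside −0.45 and 0.05 in clusters 4 to 10. By fold the list was led by genes at low counts, *Ccl5*, *Fam90a1a*, *Kazald1*, *Rpl31-ps18*, *Pdss2*, *Dscam*, *Sp100* and *Irak1bp1*.

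Higher in V943R cluster 11 was *Rgs2*, a regulator of G protein signalling, at 26.2 and 25.9 CPM in WT and 83.5 and 96.2 CPM in V943R, a log2 of 1.8 (1.53 to 2.07) beside 1.03 (0.96 to 1.10) in clusters 4 to 10. Of 20 PI3K and FOXO genes measured, 4 were higher and none lower, beside 2.7% higher and 3.17% lower of all genes measured. Their median log2 was 0.23 beside 0.06 in clusters 4 to 10. *Sgk1*, a kinase downstream of PI3K, was at 107 and 101 CPM in WT and 226 and 250.3 CPM in V943R, a log2 of 1.20 (1.05 to 1.35) beside 0.63 (0.58 to 0.67). *Txnip*, *Foxo4* and *Ccng2* had 0.69, 0.91 and 0.98. *Sox4*, a factor of luminal differentiation, was at 504 and 488 CPM in WT and 1003 and 924 CPM in V943R, a log2 of 0.95 (0.88 to 1.02) beside 0.40 (0.37 to 0.42). Of the 17 ERK feedback and target genes measured between genotypes, none met the rule, with a median of 0.05. *Gsta4*, *Igsf5*, *Pcp4* and *Crym*, which were low in WT cluster 11, were higher in V943R, and they also rose in clusters 4 to 10. The log2 was 0.60 for *Igsf5*, 0.62 for *Pcp4* and 0.79 for *Crym*, beside 0.84, 0.84 and 0.58 in clusters 4 to 10. *Gsta4* was at 122 and 184 CPM in V943R, a log2 of 1.45 (1.25 to 1.64), and clusters 4 to 10 showed 1.28 (1.25 to 1.32). *Marcksl1*, an actin-binding kinase substrate, had a log2 of 0.78 (0.61 to 0.94) and *Sik1*, a salt-inducible kinase, 0.62 (0.43 to 0.80). *Adm*, *Krt15*, *Plcb1*, *Pdgfa*, *Rpl3-ps2* and *mt-Tc* completed the genes with the largest fold.

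The 2 WT libraries mostly gave the same direction, though not the same calls. Of the genes called higher from library A by itself, 86.2% pointed the same way in library B, and 87.2% of those called from library B by itself did so in library A, beside 90.1% and 89.2% for genes lower. Of the 628 genes called higher from both libraries, 301 were called from library A by itself and 353 from library B by itself, and of the 1395 lower, 894 and 962. For WT cluster 11 the chi-square between the libraries was 1.56 per degree of freedom over 14503 genes, and for V943R it was 1.29 over 11124 genes. Both values were above that of counting error alone. The counting intervals are therefore too narrow for the spread even between libraries of the same mice. Some markers were close, with *Tmem158* at 1113 and 1108 CPM and *Kcnh1* at 51.6 and 51.1 CPM in libraries A and B.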

How the data were processed

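Luminal cells of 2 WT and 2 V943R libraries (10x 3′ v2) were used as deposited. Per the submitters' processing notes, reads were processed with CASAVA 1.8, bcl2fastq 2.20 and GSNAP 2013-10-10 on GRCm38, and clusters came from Partek Flow and Seurat (resolution 0.6) according to the methods. The deposited signal is the UMIs of a cell multiplied by 1 factor per cell by the authors. Whole UMIs were recovered by dividing by each cell's smallest nonzero value, with 100% of values within 0.02 of a whole number. Libraries were called A and B by name order, since the table gives no replicate number for them.

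UMIs were summed per library, genotype and cluster with Python 3.11.15, numpy 2.4.6, pandas 2.3.3 and scipy 1.17.1, and matplotlib 3.10.9 drew the figures. Annotation was from GENCODE mouse release 21, in which 52489 genes matched. Intervals of log2 ratios were exact conditional binomial, those of shares Clopper-Pearson and that of the ratio of shares log-normal. Since each genotype was 1 pool, no count model was used to compare them. All cells were kept, and no doublet caller was run. The clusters are the authors' own. The cells, the gene lists, the marker genes and the rules were chosen with earlier results of these data known. The genes named were *Erbb3*, the 5 markers, the 15 highest and 15 lowest ratios in WT cluster 11, the 8 highest and 8 lowest between genotypes, without genes named by the paper or clone-type symbols, and members of the lists. Genes of 100 CPM or more, loci counted once and lower genes without clusters 5, 6 and 9 were added after seeing the data. The scripts were checked on simulated data. Alternatives are given in the closing section.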

Additional observations from a re-analysis of the deposited data

Results flagged for a closer look

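Across the 2 genotypes, 65 genes met the rule for cluster 11 over clusters 4 to 10 in opposite directions, and 4 of them are named here. *Fam90a1a* had a log2 of 2.07 in WT and −0.67 in V943R, *Irak1bp1* 0.60 and −0.78, *Kazald1* 0.81 and −1.57, and *Muc15* −1.25 and 0.77. Between genotypes, 4 genes met the rule in opposite directions in cluster 11 and in clusters 4 to 10. Among the genes named, this was the case for *Krt4*, with a log2 of V943R over WT of −0.59 in cluster 11 and 0.72 in clusters 4 to 10. The difference between the effects was not tested for any of these genes.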

How the results depend on the processing

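The 2 libraries of a genotype share their mice, so the values are those of 1 pool each. Depth limits the calls of rare transcripts, since the median gene called between genotypes had 86.5 (higher) and 82 (lower) UMIs in the genotype with more. No paired analysis was possible because the 2 genotypes were separate pools of different mice. The number of genes higher in WT cluster 11, 628, was 1017 at 20 UMIs, 256 at 200 UMIs, 110 at a fold of 2, 255 against cluster 8 alone, 302 against cluster 4 alone and 38 at 100 CPM, and 528 to 580 with 1 library left out. The number lower, 1395, was 787 at 200 UMIs, 718 at a fold of 2, 812 without clusters 5, 6 and 9, 474 against cluster 8, 477 against cluster 4 and 88 at 100 CPM, and 1227 to 1267 with 1 library left out. For V943R over WT in cluster 11, the 276 genes higher became 586 at 20 UMIs, 32 at 200 UMIs, 20 at a fold of 2 and 11 at 100 CPM, and 113 to 599 with 1 library left out. The 324 lower became 656, 53, 83 and 11, and 169 to 750. The counts were 222 and 372 with ratios centred on their median. The share ratio was 0.316 over all cells and 0.333 to 0.358 with 1 library left out. Of 2391 recomputed ratios of named genes, 2384 kept their sign, but sizes moved: against cluster 8 alone, and likewise against cluster 4 alone, 152 of 193 named genes moved by more than 1 SD of the libraries. Of the 628 genes higher, 157 were also called against cluster 8 alone and 182 against cluster 4 alone, and of the 1395 lower, 281 and 311. The ratios that changed sign were *Ccl5* at −0.092, *Ccnb1* at 0.026 and *Cenpa* at 0.070 against cluster 8 alone, *Fam84a* at −0.11, *Fkbp5* at 0.12 and *Ifit1* at 0.54 against cluster 4 alone, and *Fkbp5* at 0.13 without clusters 5, 6 and 9. For these 7 the cause was not tested.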

Other observations

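Neighbouring genes at a defensin locus were called together in cluster 11. *Defb1*, *Defb15* and *Fam90a1a* lie within 187.704 kb on chromosome 8, from 21776599 to 21964303, a span set by *Defb1* and *Fam90a1a*, which were already called higher in WT cluster 11 and lower in V943R cluster 11. *Defb15*, the other gene measured there, was called the same way on 60 UMIs in WT cluster 11. *Defb15*, a beta-defensin, was at 5.81 and 6.89 CPM against 2.51 and 2.15 CPM in WT cluster 11 and clusters 4 to 10 and at 2.78 and 1.503 CPM in V943R cluster 11. None of the 3 met the rule between genotypes in clusters 4 to 10. On chromosome 12, *Wars* and its neighbours *Wdr25*, *Slc25a29* and *Slc25a47* were all higher in WT cluster 11, with log2 ratios of 1.12, 1.17, 1.10 and 0.99. The neighbours were picked by hand and no window was scanned. Their levels were low, with *Slc25a47* at 2.91 and 3.04 CPM and *Wdr25* at 8.05 and 8.92 CPM in cluster 11 of WT libraries A and B. *Sema6b*, next to *Lrg1*, had 1.20 at low counts.

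Some genes varied within WT cluster 11 beyond the spread of counts. The Fano factor, the variance over the mean of UMIs between cells thinned to 1000 UMIs each, had a median of 1.01 in each library over 2973 genes with a mean of 0.05 or more UMIs per cell, and 56 genes reached 1.5 in both. Among them *Gpx3* had 6.42 and 6.40 in libraries A and B, *Areg* 4.81 and 4.73, *Upk3a* 5.89 and 4.61, and *Fgb* 4.28 and 5.07. *Ptn*, a heparin-binding growth factor, had 3.82 and 3.91, *Dmbt1*, a mucosal scavenger receptor, 3.11 and 3.41, *Hp* 2.65 and 3.67, and *Fgg* 2.31 and 2.15. *Ptn* was also the most abundant gene called higher, at 15447 and 16623 CPM against 10095 and 10633 CPM in WT cluster 11 and clusters 4 to 10, and was named after its values were seen.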
